A study of Mus musculus with 31 samples.

Results

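The guanylate-binding proteins and immunity-related GTPases are 2 families of large and mid-sized GTPases whose genes are switched on by interferon gamma. The 10 genes described here are Gbp2, Gbp3, Gbp4, Gbp5, Gbp6 and Gbp7 of the guanylate-binding family and Irgm1, Irgm2, Igtp and Iigp1 of the immunity-related family. They were chosen by symbol, and all 10 were found among the 54456 genes of the whole tumour table and among the 12444 gene symbols of the sorted cell table. RNA was sequenced from tumours of AB1-mCherry, a mouse mesothelioma line that carries a red fluorescent protein and of which the brightest cells had been sorted and grown on before use. Cells were placed under the skin (subcutaneous), in the peritoneal space or in the pleural space of female BALB/c mice aged 12 weeks that received no treatment, and tumours were taken on day 10. Whole tumours came from 5 subcutaneous, 5 peritoneal and 6 pleural implants, and CD45-negative, mCherry-positive cells were sorted from 5 tumours at each site. All groups share the 1 cell line and the host strain, and there was no group given interferon and no normal tissue. Values are in TPM, a transcript level scaled for transcript length and for the total of the library.

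Interferon gamma is made mainly by T cells and natural killer cells. It binds a receptor built from Ifngr1 and Ifngr2, and the receptor's kinases Jak1 and Jak2 start a signal that acts on DNA elements called GAS and induces Irf1, which binds elements called ISRE. Guanylate-binding proteins assemble on vacuoles that hold microbes and on bacteria in the cytosol, and help to trigger inflammasomes there. Among the immunity-related GTPases, Iigp1 is an effector that damages such vacuoles, while Irgm1, Irgm2 and Igtp are regulators that hold effectors inactive on the cell's own membranes. In tumours the same genes serve as a readout of interferon signalling in malignant and in host cells alike.

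Promoter sequences are shown as a description. Whether they bear on how these genes moved together across libraries was not tested. The sequences come from RefSeq's promoter table for build GRCm38.p6 and are shown for 7 of the 10 members. Not every chromosome was searched for them, so a member not shown here may still have an entry. The match counts below refer to those 7 only. Each line holds bases -170 to -1 before the annotated transcription start, 5′ to 3′ on the gene's own strand, and capitals mark matches to the ISRE core, which is TTTC, any 2 bases and TTTC again (GAAA, any 2 bases and GAAA on the other strand), or to the GAS core TTCNNNGAA, which reads the same on both strands. The windows lie at chr3:142620493-142620662 for Gbp2, chr3:142559874-142560043 for Gbp3, chr3:142496764-142496933 for Gbp5, chr3:142530166-142530335 for Gbp7, chr11:58199386-58199555 for Igtp and chr11:58214807-58214976 for Irgm2, all on the plus strand, and at chr11:48871421-48871590 on the minus strand for Irgm1.
Gbp2: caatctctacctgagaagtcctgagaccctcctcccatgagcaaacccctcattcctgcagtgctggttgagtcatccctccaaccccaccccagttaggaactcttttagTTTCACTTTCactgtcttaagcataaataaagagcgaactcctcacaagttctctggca
Gbp3: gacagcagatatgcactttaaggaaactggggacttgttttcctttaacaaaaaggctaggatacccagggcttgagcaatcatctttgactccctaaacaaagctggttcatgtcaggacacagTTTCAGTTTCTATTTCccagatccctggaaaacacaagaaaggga
Gbp5: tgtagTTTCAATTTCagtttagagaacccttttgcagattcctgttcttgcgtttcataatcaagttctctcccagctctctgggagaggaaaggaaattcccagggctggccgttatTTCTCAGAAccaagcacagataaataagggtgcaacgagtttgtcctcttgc
Gbp7: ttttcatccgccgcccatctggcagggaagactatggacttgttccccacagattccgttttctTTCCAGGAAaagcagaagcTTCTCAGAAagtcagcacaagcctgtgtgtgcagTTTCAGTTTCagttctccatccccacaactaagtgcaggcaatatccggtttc
Irgm1: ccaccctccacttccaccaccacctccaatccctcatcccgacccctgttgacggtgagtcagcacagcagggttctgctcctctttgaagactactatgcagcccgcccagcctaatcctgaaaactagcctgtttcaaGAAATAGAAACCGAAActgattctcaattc
Irgm2: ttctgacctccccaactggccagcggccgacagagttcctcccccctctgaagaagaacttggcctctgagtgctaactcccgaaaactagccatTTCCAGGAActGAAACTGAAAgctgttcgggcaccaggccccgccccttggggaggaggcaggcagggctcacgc
Igtp: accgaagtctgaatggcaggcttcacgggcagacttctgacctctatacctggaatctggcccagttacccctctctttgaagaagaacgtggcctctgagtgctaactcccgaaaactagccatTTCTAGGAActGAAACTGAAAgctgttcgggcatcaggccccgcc

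Within the full windows, which run from 250 bases before to 50 after the start, an ISRE core match was present in all 7 genes, against 3.44% of the 32851 promoter windows in the table. The second window listed for Gbp3 had none. A GAS core match was present in 4 of the 7, Gbp5, Gbp7, Igtp and Irgm2, against 8.30% of all windows. In Igtp the GAS match lay at bases -45 to -37 and the ISRE match at -34 to -25, and in Irgm2 the same order was found at -75 to -67 and -64 to -55. The windows of these neighbours on chromosome 11 also shared a run of 38 identical bases, the longest for any pair of the 7 printed windows. In Gbp3 and in Irgm1, 2 ISRE matches overlapped. A match is a description of the letters, not a measured binding site.

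In whole tumours every member was expressed at every site. The highest mean over the 16 libraries was that of Gbp2, at 262 ± 113 TPM (SD, n = 16). It was followed by Igtp at 203 ± 82.9 TPM, Iigp1 at 170 ± 65.1 TPM and Irgm1 at 167 ± 58.1 TPM. The order of Gbp2 above Igtp and of Igtp above Iigp1 held in 16 of 16 libraries, whereas Iigp1 exceeded Irgm1 in only 6 of 16, so that pair did not differ beyond their spread. Gbp3 averaged 109 ± 49.5 TPM, Gbp4 83.6 ± 38.3 TPM, Irgm2 71.4 ± 26.8 TPM and Gbp7 51.3 ± 19.9 TPM. The lowest were Gbp5, at 30.5 ± 11.5 TPM, and Gbp6, at 15.7 ± 6.72 TPM. The level of Gbp6 is the least certain of the 10, since 70.7% of the 50-base stretches of its transcripts in the GENCODE annotation of GRCm38 also occur in other genes, chiefly Gm43302 (65.0%) and Gbp10 (45.9%), and reads were 50 bases long. Igtp shared 11.8% of its stretches with Irgm2, Gbp7 shared 12.7% with other genes, and the other members shared 0.379 to 7.83%.

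No member passed the test between any 2 sites in whole tumours. For Gbp2, which coats microbe-bearing vacuoles, the subcutaneous tumours numbered 1 to 5 measured 239, 101, 319, 175 and 272 TPM. The peritoneal tumours numbered 1, 2, 3, 4 and 7 measured 282, 70.2, 132, 340.5 and 373 TPM, and the 6 pleural tumours ran from 139 through a median of 326 to 439 TPM. The 3 groups overlapped broadly, with 1 low tumour at each site setting the bottom of each range. Pleural exceeded subcutaneous Gbp2 by 0.51 on the log2 scale (95% interval -0.40 to 1.42, adjusted p = 0.444), where here and below differences are of mean log2(TPM + 1) and adjusted p values are limma's with Benjamini-Hochberg adjustment over all genes tested. Igtp, a regulator that sits on the endoplasmic reticulum and lipid droplets, followed the same course. It measured 205, 86.6, 215, 143 and 217 TPM in subcutaneous tumours 1 to 5, and 223, 58.3, 117, 234 and 294 TPM in peritoneal tumours 1, 2, 3, 4 and 7. The pleural tumours ran from 96.6 through 252 to 341 TPM. The subcutaneous tumour 2 and the peritoneal tumour 2 that were low for Gbp2 were low for Igtp as well.

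Pleural means were above subcutaneous ones for 10 of 10 members, by a median of 0.44 on the log2 scale against 0.07 over all 15054 genes tested, but 0 of 10 passed the limma test at an adjusted p below 0.05, and 0 had an unadjusted p below that level. Of all genes tested, 12.8% passed and 30.8% had such an unadjusted p; without subcutaneous tumour 2, 5.00% passed. The groups overlapped for 10 of 10 members, while for 7.76% of genes they did not. The difference ran from 0.16 for Gbp5 (interval -0.59 to 0.91, adjusted p = 0.794), which promotes inflammasome assembly, to 0.64 for Gbp6 (interval -0.10 to 1.39, adjusted p = 0.228). The intervals of the 10 members together reached from -0.59 to 1.45, so these tumours bound the difference only loosely. Between peritoneal and subcutaneous tumours, 0 of 10 passed, where 12.2% of all genes did (5.99% without subcutaneous tumour 2 and 6.59% without peritoneal tumour 2), and 0 had an unadjusted p below 0.05, where 30.7% did. Groups overlapped for all 10 members and did not for 12.5% of genes. There 3 differences were above 0 and 7 below, from -0.34 for Gbp5 (interval -1.13 to 0.45) to 0.24 for Gbp7 (interval -0.55 to 1.02), with a median of -0.04. Between pleural and peritoneal tumours 0 of 10 passed and 0 had an unadjusted p below 0.05, with 0.0531% of all genes called (0.0266% higher and 0.0266% lower) and 11.1% at that unadjusted p. Groups overlapped for all 10 members and did not for 1.14% of genes. All 10 differences were above 0 there, from 0.34 for Irgm2 to 0.66 for Gbp4 (interval -0.25 to 1.56, adjusted p = 0.587). The 3 comparisons share samples and the members moved together, as given below, so directions are not independent over comparisons or over members. Leaving out subcutaneous tumour 2 lowered the pleural-subcutaneous median from 0.44 to 0.20, leaving out pleural tumour 7 raised it to 0.66, and leaving out peritoneal tumour 2 lowered the pleural-peritoneal median from 0.49 to 0.16.

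**Figure D1:**
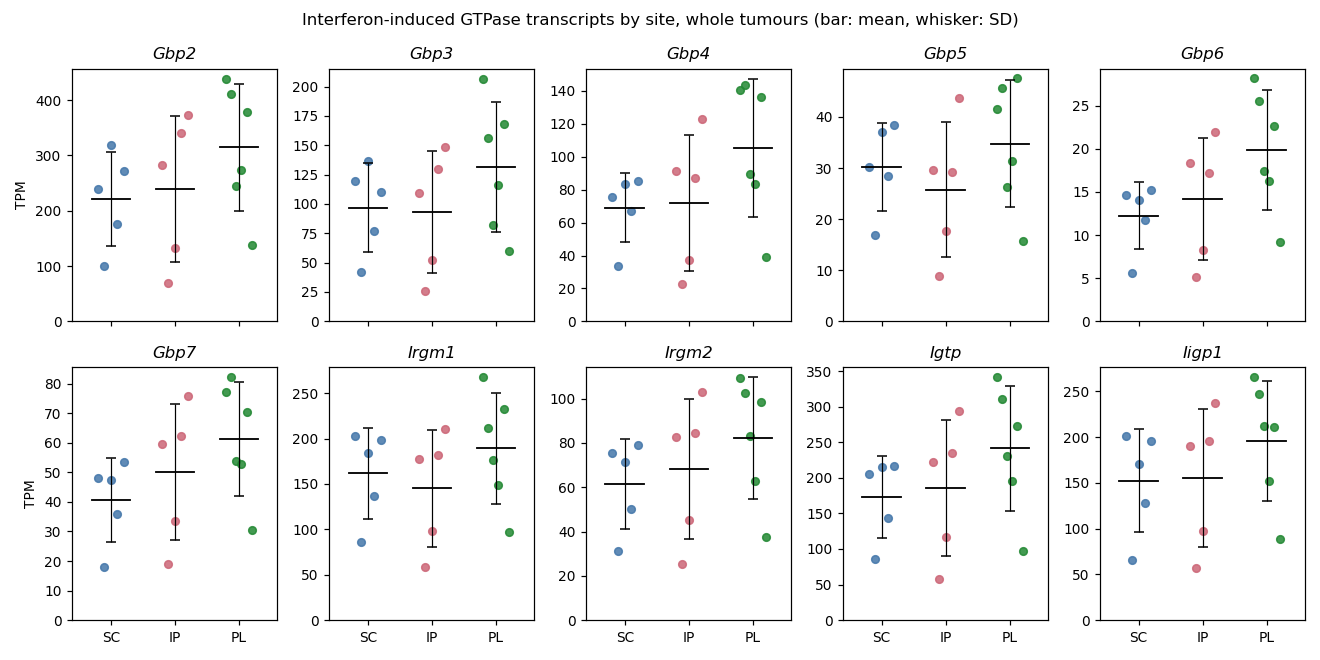
Level of each GTPase in whole tumours (y axis, TPM, from 0) at the subcutaneous (SC, n = 5), peritoneal (IP, n = 5) and pleural (PL, n = 6) sites; each point is 1 tumour, the bar is the mean and the whisker the SD. The groups overlap for all 10 genes, and Gbp2 spans 70.2 to 439 TPM.

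Tumours of the same site differed widely in these genes. The SD between tumours of 1 site was 0.61 to 0.80 on the log2 scale for the 10 members, against a median of 0.16 over all genes tested, which put every member between the 95.8th and the 97.7th percentile of genes for within-site spread. The share of variance between sites ran from 8.73% for Iigp1 to 20.3% for Gbp6, where the median gene had 25.5%. Part of such a share arises without any site effect. Subcutaneous tumour 2, peritoneal tumour 2 and pleural tumour 7 were each the lowest of their site for 10 of 10 members. Subcutaneous tumour 2 was also the highest of its site in all 4 skeletal muscle markers (Acta1 at 411 TPM and Ckm at 199 TPM) and in all 3 adipocyte markers (Fabp4 at 141 TPM). The muscle markers summed to 39.1 to 794 TPM in subcutaneous, 1.01 to 1.69 TPM in peritoneal and 0.753 to 433 TPM in pleural tumours, and against subcutaneous tumours 4 of 4 fell in peritoneal and 3 of 4 in pleural ones. The part of muscle and fat RNA in the GTPase levels was not tested. Peritoneal tumour 7 was the highest of its site for 10 of 10 and pleural tumour 1 for 7 of 10. The summed level of the 10 genes ran from 486 to 1278 TPM in subcutaneous, 350 to 1631 TPM in peritoneal and 613 to 1916 TPM in pleural tumours. Bulk tissue cannot tell fewer cells of a type that expresses these genes from less RNA of these genes per cell.

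After each site's mean was subtracted, the members moved together. Pearson's r over the 16 tumours lay between 0.93 (Gbp5 with Iigp1) and 0.99 (Irgm2 with Igtp) for the 45 pairs, with a median of 0.98. Over all pairs of tested genes the median r was 0.06, and 0.00934% of pairs reached the lowest r among the members. These pairs share libraries, and Irgm2 and Igtp share sequence as given above.

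**Figure D2:**
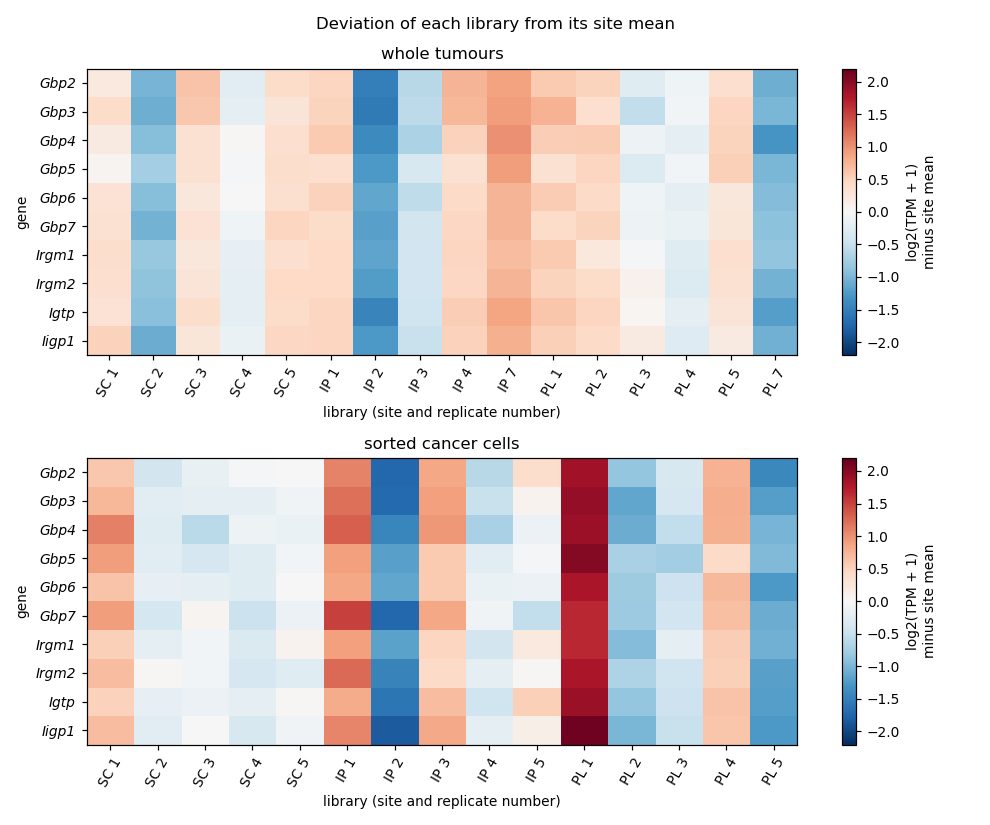
Deviation of each library (x axis, site and replicate number) from its site mean for each GTPase (y axis), in log2(TPM + 1), for whole tumours above and sorted cancer cells below; red is above and blue below the site mean. Whole columns share a colour, such as subcutaneous tumour 2, peritoneal tumour 2 and pleural tumour 7, each lowest in its site for 10 of 10 genes.

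The genes most like the members were ranked by Pearson's r, over the 16 tumours, to the mean site-centred profile of the 10, among the 10922 genes with a mean of at least 5 TPM. The highest was Zbp1, a nucleic acid sensor (r = 0.99). After it came Olfr56, Gm43302, Ifi47, Gm12250, the transcription factor Irf1 (r = 0.99), Tgtp2, Gbp2b and the immunoproteasome subunit Psmb8 (r = 0.98). Ifi47, Gm12250, Tgtp2 and Gbp2b are GTPases of the same 2 families. Olfr56 is an olfactory receptor symbol whose span in the GENCODE annotation of GRCm38 overlaps interferon-induced GTPase genes, and Gm43302 overlaps Gbp6, so reads of these cannot be assigned with certainty. Socs1, the feedback inhibitor of the pathway, ranked 43rd (r = 0.95), and the T cell attracting chemokines Cxcl10 and Cxcl9 ranked 48th (r = 0.94) and 69th (r = 0.92).

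Ifng itself was low but measurable. Subcutaneous tumours 1 to 5 held 3.54, 1.77, 4.18, 2.77 and 3.63 TPM, and peritoneal tumours 1, 2, 3, 4 and 7 held 2.97, 0.923, 1.23, 3.50 and 4.61 TPM. Pleural tumours ran from 1.57 through a median of 3.37 to 4.60 TPM. The tumours lowest in the GTPases at each site, subcutaneous 2, peritoneal 2 and pleural 7, were also the lowest of their site in Ifng. That was not particular to Ifng. The same tumours were lowest in the general leukocyte markers Laptm5 and Cd52 and in the macrophage marker Csf1r. The general leukocyte markers Ptprc, Coro1a and Cd53 and the other macrophage markers had a different lowest tumour at some site. Ifng did not pass the test between any 2 sites, with differences of 0.02 for pleural against subcutaneous (adjusted p = 0.972), -0.28 for peritoneal against subcutaneous (adjusted p = 0.534) and 0.30 for pleural against peritoneal (adjusted p = 0.706). Over the 16 tumours, with site means removed, the correlation of Ifng with the members ran from r = 0.94 for Iigp1 (Spearman's rho = 0.79) to r = 0.97 for Gbp4 (rho = 0.90). Each had an adjusted permutation p of at most 0.0002 for r and 0.00982 for rho (2-sided, 100000 permutations within sites, 40 relations adjusted together). Without the 2 tumours farthest from the median of Ifng, r stayed between 0.89 for Iigp1 and 0.96 for Gbp4.

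The correlation with Ptprc, which encodes the leukocyte antigen CD45, was lower in each member. It ran from r = 0.59 for Gbp3 (adjusted permutation p = 0.0545) to r = 0.75 for Gbp5 (adjusted permutation p = 0.0092), and 8 of 10 passed for r. For rho, Gbp2, Gbp4, Gbp5, Gbp6 and Gbp7 passed (highest adjusted permutation p = 0.0452). Gbp3, Irgm1, Irgm2, Igtp and Iigp1 did not pass for rho (adjusted permutation p from 0.0705 to 0.144). Without the 2 tumours farthest from the median of Ptprc, the correlation r was 0.49 for Gbp3 and 0.66 for Gbp5. With the T cell gene Cd3e it ran from r = 0.39 for Irgm1 to r = 0.58 for Gbp5, and 0 of 10 passed for r, with 1 of 10, Gbp5, passing for rho (0.62, adjusted permutation p = 0.0464). Without the 2 tumours farthest from the median of Cd3e, r was higher, from 0.554 for Irgm1 to 0.705 for Gbp5. Whether the correlations with Ifng, with Ptprc and with Cd3e differ was not tested.

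**Figure D3:**
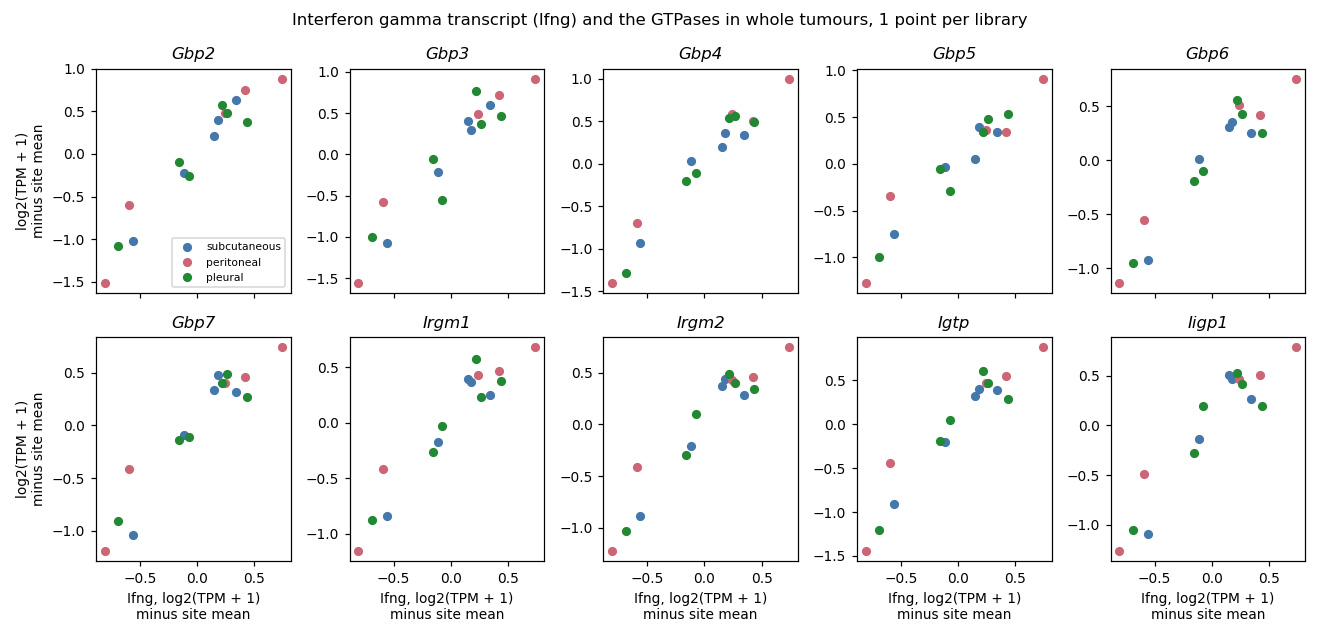
Each GTPase (y axis) against the interferon gamma transcript Ifng (x axis) in the 16 whole tumours, both as log2(TPM + 1) minus the site mean; 1 point is 1 tumour, coloured by site. Points rise together in all 10 panels, with r from 0.94 for Iigp1 to 0.97 for Gbp4.

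Markers of other cells moved with site in whole tumours, in both directions, although the GTPases did not pass. Of 6 natural killer markers, 5 fell in peritoneal and 3 in pleural against subcutaneous tumours, where 3.64% and 3.40% of all genes were called lower. Their summed level ran from 50.8 to 73.3 TPM in subcutaneous, 14.6 to 31.6 TPM in peritoneal and 16.9 to 50.5 TPM in pleural tumours. Of 6 macrophage markers 4 fell in peritoneal and 3 in pleural tumours, and of 5 pan-leukocyte markers 2 and 0 did. Of 6 dendritic cell markers 3 and 2 fell, and of 4 neutrophil markers 2 and 1. Of 8 T cell markers 0 passed at either site, with sums of 111 to 174 TPM, 105 to 178 TPM and 71.8 to 158 TPM in the same order of sites. B and plasma cell markers went the other way, with 3 of 5 higher in peritoneal and 2 of 5 in pleural tumours, where 8.52% and 9.40% of all genes were called higher. Their sums were 25.3 to 79.8 TPM, 262 to 2159 TPM and 134 to 866 TPM. Of 5 mesothelial markers 4 rose in peritoneal and 3 in pleural tumours. The part of these cells in the levels of the GTPases was not tested.

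Upstream and beside the GTPases, few genes of the interferon gamma pathway differed between sites in whole tumours. Of 26 genes on that list, 0 rose and 1 fell in pleural against subcutaneous tumours, where 9.40% of all genes were called higher and 3.40% lower. The 1 was Il12b, a subunit of the cytokine that induces interferon gamma, at 1.01 ± 0.476 TPM (SD, n = 6) against 2.46 ± 0.511 TPM (SD, n = 5), a difference of -0.80 (adjusted p = 0.00951). In peritoneal against subcutaneous tumours 1 rose and 2 fell, against a background of 8.52% higher and 3.64% lower. Ido1, the tryptophan-degrading enzyme, rose by 1.52 (adjusted p = 0.0215), Il12b fell by 0.83 (adjusted p = 0.00900) and the receptor chain Ifngr2 fell by 0.22 (adjusted p = 0.0286). Ido1 and Ifngr2 did not pass without a filter on low values (adjusted p = 0.0537 and 0.0557), Ido1 did not without subcutaneous tumour 2 (adjusted p = 0.0609), and Ifngr2 did not without subcutaneous tumour 4 or 5 or peritoneal tumour 2 (adjusted p from 0.0623 to 0.0739). Ifngr1, Jak1, Jak2, Irf1, Socs1, Cxcl9 and Cxcl10 did not pass in any of the 3 comparisons. Between pleural and peritoneal tumours 0 of 26 passed.

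Of 18 other interferon-induced GTPases with enough signal, 0 passed in each of the 3 comparisons, with a median difference of 0.46 for pleural against subcutaneous tumours. Of 20 type I interferon response genes 0 passed either. Of 20 genes that load GTPases onto membranes or act beside them, 1 passed: Gabarapl1, a ubiquitin-like protein of autophagy, was higher in peritoneal than in subcutaneous tumours by 0.22 (adjusted p = 0.0205), and this call was lost under median-of-ratios scaling (0.14, adjusted p = 0.0918), and without subcutaneous tumour 2 (adjusted p = 0.0522) or peritoneal tumour 2 (adjusted p = 0.0539).

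Sorted cancer cells expressed all 10 members too, although Ifng, and every T cell, natural killer and dendritic cell marker of the lists, were not analysed there because the table does not list them. Before the values, 2 sorted libraries stand apart in Ptprc. Ptprc, the gene for the antigen the cells were sorted to lack, measured 12.9 TPM in subcutaneous library 1 and 7.48 TPM in subcutaneous library 2, and 0.228 to 2.05 TPM in the other 13. The 5 pan-leukocyte markers summed to 15.7 to 206 TPM in subcutaneous, 8.32 to 20.5 TPM in peritoneal and 8.11 to 23.7 TPM in pleural libraries, and the 5 macrophage markers listed there to 14.9 to 470 TPM, 15.5 to 44.9 TPM and 16.6 to 47.7 TPM. Results that rest on subcutaneous libraries are therefore also given without these 2, a choice made after seeing the data. That choice leaves at least 1 subcutaneous library high in each sum. The subcutaneous medians, 41.9 TPM for the pan-leukocyte and 72.6 TPM for the macrophage markers, lay above every peritoneal and pleural library. The choice also does not remove the site difference of Cd53, 1 of the pan-leukocyte markers. Its lowest subcutaneous value, 9.76 TPM in library 5, lay above the highest peritoneal (4.37 TPM) and pleural (3.27 TPM) values. The part of leukocyte RNA in the GTPase differences was not tested. Over the 15 sorted libraries the correlation of the members with Ptprc, site means removed, ran from r = 0.01 for Gbp2 to r = 0.22 for Gbp4, and 0 of 10 passed the permutation test (lowest adjusted permutation p = 0.405, for Gbp4). With site means kept, r ran from 0.211 for Igtp to 0.417 for Gbp4. Removing site means takes out any difference between sites, and Ptprc was near the floor in 13 libraries. The test therefore cannot decide the part of leukocyte RNA in the site differences.

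Gbp2 was again the highest, at 157 ± 98.4 TPM (SD, n = 15) over all sorted libraries. Igtp followed at 87.8 ± 50.9 TPM, Iigp1 at 66.7 ± 45.3 TPM, Irgm1 at 59.4 ± 34.6 TPM and Gbp3 at 56.1 ± 39.3 TPM. The next 3, Gbp7 at 18.3 ± 12.6 TPM, Irgm2 at 17.5 ± 10.9 TPM and Gbp4 at 17.2 ± 13.9 TPM, could not be ordered, since Gbp7 exceeded Irgm2 in 9 of 15 libraries and Irgm2 exceeded Gbp4 in 8 of 15. Gbp5, at 8.28 ± 6.65 TPM, and Gbp6, at 6.61 ± 4.59 TPM, were the lowest.

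Within a library, the balance among the members differed between the kinds of sample. Gbp4 stood at 25.5 to 38.3% of the level of Gbp2 in the 16 whole tumours and at 6.39 to 15.1% in the 15 sorted libraries, so the ranges did not overlap. Gbp5 stood at 8.56 to 16.7% of Gbp2 in whole tumours and at 2.76 to 7.53% in sorted cells, and Irgm2 at 22.4 to 36.3% and at 7.96 to 19.6%, again without overlap. For the other 6 members, Gbp3, Gbp6, Gbp7, Irgm1, Igtp and Iigp1, the ranges overlapped, as for Gbp3 at 33.7 to 49.9% and 25.3 to 41.3%. In mean level, whole tumours exceeded sorted cells by 1.02-fold (Gbp2) to 2.89-fold (Gbp4) at the subcutaneous site, by 2.13-fold (Gbp2) to 6.63-fold (Gbp4) at the peritoneal site and by 2.23-fold (Gbp2) to 6.2-fold (Gbp4) at the pleural site. The tables were normalized separately and RNA came from different kits, so these ratios carry no test.

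In sorted cells the subcutaneous libraries had the highest means for all 10 members and the smallest ratio of highest to lowest library. For Gbp5 the subcutaneous libraries 1 to 5 measured 23.9, 10.2, 9.18, 9.88 and 11.6 TPM. The peritoneal ones measured 9.48, 1.45, 7.33, 3.71 and 4.50 TPM and the pleural ones 20.6, 2.28, 2.15, 6.16 and 1.74 TPM. Only peritoneal library 1 and pleural library 1 reached into the subcutaneous range. For Irgm1, a regulator that also acts in autophagy, the subcutaneous libraries measured 121, 72.3, 81.5, 67.8 and 88.7 TPM. The peritoneal ones measured 70.1, 15.7, 51.9, 27.8 and 43.1 TPM and the pleural ones 123, 19.4, 33.4, 56.5 and 18.0 TPM. Peritoneal library 1 again reached the subcutaneous range, and pleural library 1 lay just above it.

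For Gbp2 the subcutaneous libraries measured 318, 159, 187, 206 and 213 TPM, the peritoneal ones 194, 26.4, 164, 59.0 and 118 TPM, and the pleural ones 363, 55.4, 78.1, 172 and 37.1 TPM. Gbp3 gave 130, 65.8, 67.6, 67.7 and 74.0 TPM in subcutaneous libraries, 66.8, 7.89, 53.6, 19.9 and 29.9 TPM in peritoneal ones and 139, 15.4, 27.2, 62.6 and 14.7 TPM in pleural ones. Iigp1, the vacuole-damaging effector, gave 141, 74.2, 88.6, 69.3 and 83.4 TPM, then 88.3, 10.9, 74.4, 35.8 and 45.6 TPM, then 170, 18.3, 26.8, 57.9 and 15.2 TPM. In all 3 genes library 1 was the highest of its site and pleural library 1 the highest of all 15.

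**Figure D4:**
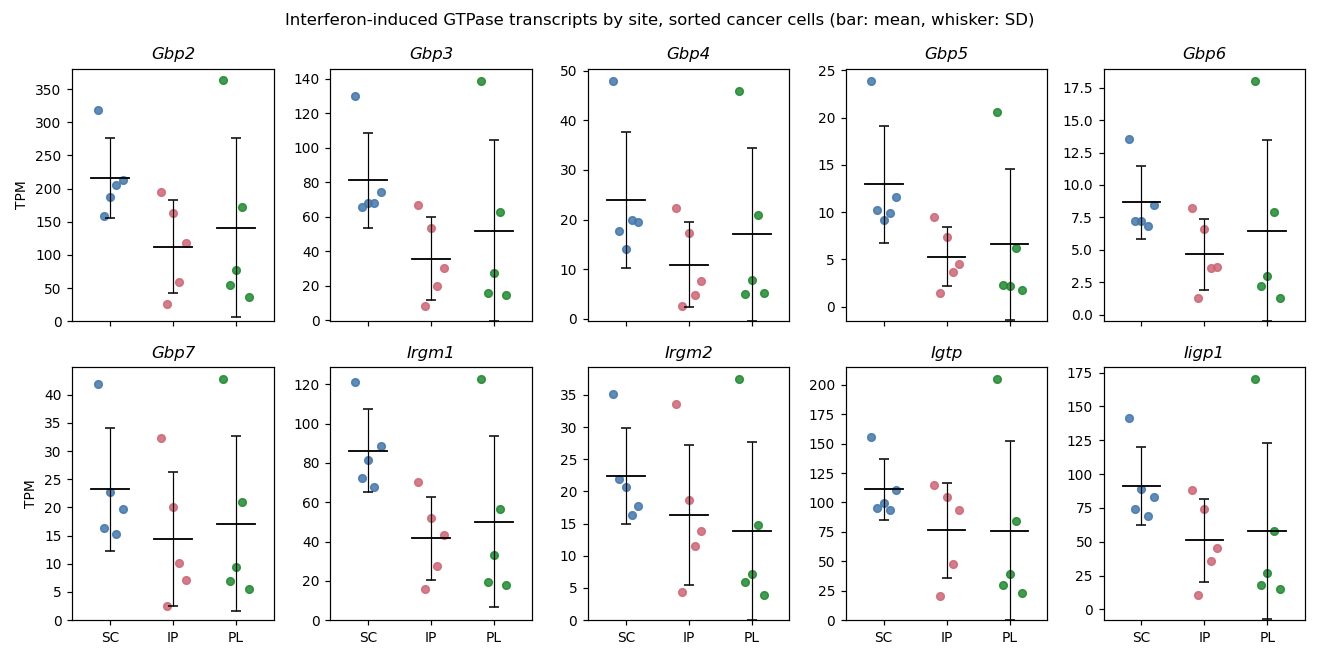
Level of each GTPase in sorted cancer cells (y axis, TPM) at the subcutaneous (SC), peritoneal (IP) and pleural (PL) sites, 5 libraries each; each point is 1 library, the bar is the mean and the whisker the SD, which for some pleural groups passes below 0. Library 1 is the highest point at every site; for Gbp5 the subcutaneous libraries span 9.18 to 23.9 TPM, the peritoneal ones 1.45 to 9.48 TPM and the pleural ones 1.74 to 20.6 TPM.

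Means were lower at the peritoneal than at the subcutaneous site for 10 of 10 members, by a median of 1.12 on the log2 scale where the median over all 12357 genes tested was -0.03, yet 0 of 10 passed the limma test. Of all genes, 11.1% passed, and 9.48% had groups that did not overlap, where all 10 members overlapped. At an unadjusted p below 0.05 there were 4 of 10, Gbp3, Gbp4, Gbp5 and Irgm1, where 29.1% of all genes reached that level. Gbp3 had the widest gap, at -1.44 (interval -2.69 to -0.18, adjusted p = 0.123). Irgm1 had the lowest p, at -1.17 (interval -2.15 to -0.19, adjusted p = 0.111), and Irgm2, which restrains the non-canonical inflammasome, the smallest gap, at -0.62 (interval -1.72 to 0.47, adjusted p = 0.440). Without subcutaneous libraries 1 and 2 the median was -0.96 and 0 of 10 passed. Over the fits that left out 1 library it ran from -1.37 to -0.70, the latter without peritoneal library 2.

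Some markers of other cell types also differed between peritoneal and subcutaneous sorted cells, in both directions. Of 3 endothelial markers listed there 2 fell, Pecam1 from 6.56 ± 1.39 TPM to 1.61 ± 0.853 TPM (SD, n = 5 each; -1.56, adjusted p = 0.00183) and Cdh5 from 5.43 ± 0.940 TPM to 1.17 ± 0.950 TPM (-1.67, adjusted p = 0.00434). Fabp4, the 1 adipocyte marker listed, fell by 1.98 (adjusted p = 0.00369), and of 4 fibroblast markers, Col1a1 fell by 0.91 (adjusted p = 0.00144). For these 4 genes all 5 subcutaneous libraries lay above all 5 peritoneal ones. Of 5 pan-leukocyte markers 1 fell, Cd53, without overlap, in peritoneal cells (-1.94, adjusted p = 0.00113) and in pleural cells (-2.58, adjusted p = 0.000129). Igkc, 1 of 2 B and plasma cell markers listed, rose in peritoneal cells by 1.94 (adjusted p = 0.0488). Msln, the 1 mesothelial marker listed, rose there by 0.52 (adjusted p = 0.0459). In pleural against subcutaneous cells 0 of 3 endothelial markers passed (Pecam1 at -1.06, adjusted p = 0.0599) and Col1a1 fell by 0.81 (adjusted p = 0.00714). The summed endothelial markers ran from 10.5 to 16.9 TPM in subcutaneous, 2.66 to 7.03 TPM in peritoneal and 2.64 to 12.5 TPM in pleural libraries. The part of such cells in the GTPase differences was not tested.

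Pleural cells were likewise lower than subcutaneous ones in mean for 10 of 10 members, by a median of 1.05, and 0 of 10 passed, with 1.64% of all genes called (0.397% higher and 1.25% lower). Groups overlapped for all 10 members and did not for 3.11% of genes. At an unadjusted p below 0.05 there were 2 of 10, Gbp5 and Irgm1, against 11.0% of all genes. Gbp5 differed by -1.30 (interval -2.39 to -0.21, adjusted p = 0.326) and Irgm1 by -1.12 (interval -2.10 to -0.14, adjusted p = 0.358). Gbp7, linked to the assembly of the phagocyte oxidase, had the smallest difference, at -0.70 (interval -1.92 to 0.52, adjusted p = 0.771). Without pleural library 1 the difference of Gbp5 was -1.80 and passed (adjusted p = 0.0270), the 1 member called. Without subcutaneous libraries 1 and 2 the median was -0.92 and 0 of 10 passed. Between pleural and peritoneal cells 0 of 10 passed and 0 had an unadjusted p below 0.05, where 9.96% of all genes were called and 28.9% reached that unadjusted p. Groups overlapped for all 10 members and did not for 9.57% of genes. Those differences ran from -0.41 for Irgm2 to 0.45 for Gbp4, with intervals from -1.50 to 1.71. The comparisons of sorted cells share libraries and the members moved together there too. Directions are therefore not independent over comparisons or over members.

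**Figure D5:**
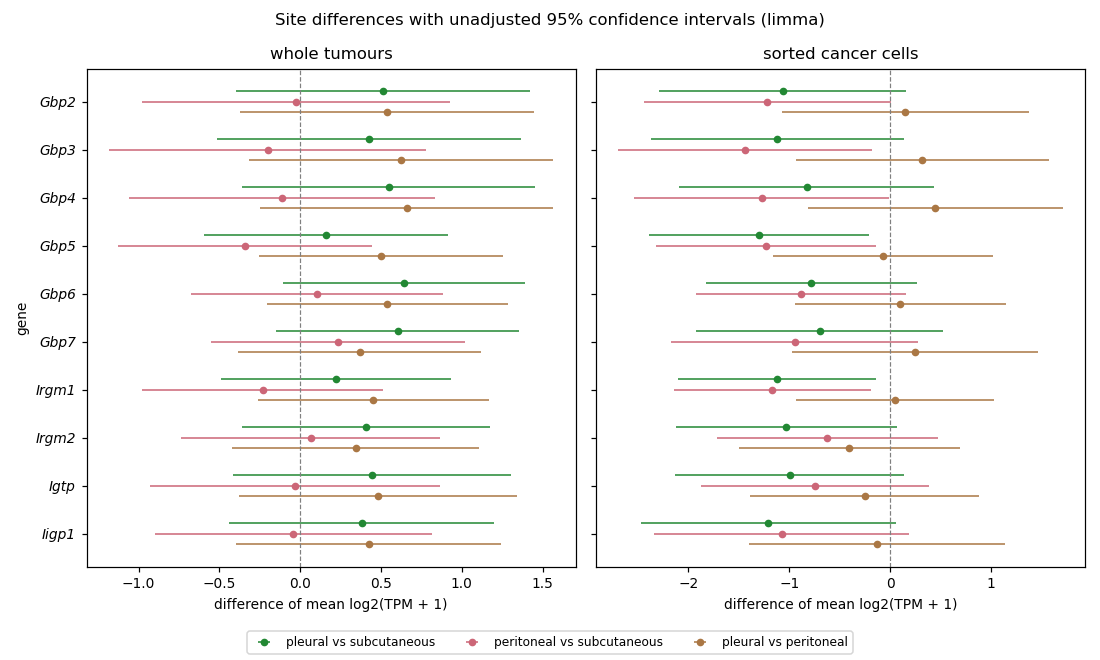
Differences between sites for each GTPase (y axis) in mean log2(TPM + 1) (x axis), whole tumours on the left and sorted cancer cells on the right, with unadjusted 95% intervals from limma. In whole tumours every interval spans 0; in sorted cells the intervals of Gbp3, Gbp4, Gbp5 and Irgm1 for peritoneal, and of Gbp5 and Irgm1 for pleural, against subcutaneous lie below 0, and none of the 10 genes passed after adjustment.

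As in whole tumours, libraries of 1 site differed widely. The highest library exceeded the lowest by 1.67-fold (Igtp) to 3.42-fold (Gbp4) among subcutaneous, by 4.46-fold (Irgm1) to 12.7-fold (Gbp7) among peritoneal and by 6.84-fold (Irgm1) to 14.2-fold (Gbp6) among pleural libraries. Within-site SDs were 0.82 to 1.07 on the log2 scale, against a median of 0.23 over all genes, at the 97.4th to 98.7th percentile. The share of variance between sites ran from 15.9% for Gbp7 to 34.8% for Gbp5 and Irgm1, where the median gene had 25.2%. Library 1 of each site was its highest for 10 of 10 members. Peritoneal library 2 was the lowest of its site for 10 of 10 and pleural library 5 for 9 of 10. Pairs of members had r between 0.91 (Gbp7 with Igtp) and 0.99 (Gbp2 with Igtp), median 0.97, where the median over all gene pairs was 0.18 and 0.459% of pairs reached the lowest r among the members.

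Most like the members in sorted cells, among 9470 genes, were Tgtp1 (r = 0.99), Olfr56, the ISG15-conjugating enzyme Ube2l6 (r = 0.99), Gbp2b, Gm12250, Tgtp2, Gm43302, the transcription factor Batf2 (r = 0.98) and Apol6. Cxcl9 ranked 11th (r = 0.97). Irf1 ranked 78th (r = 0.88) and Socs1 1164th (r = 0.47), where in whole tumours they had ranked 6th and 43rd.

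Other interferon-responsive genes did pass in sorted cells. Of 19 pathway genes tested, 5 fell in peritoneal against subcutaneous cells and 0 rose, where 6.33% of all genes were called lower and 4.75% higher. Cxcl10 measured 166, 75.3, 128, 120 and 159 TPM in subcutaneous libraries 1 to 5 and 32.6, 10.9, 59.5, 17.6 and 44.5 TPM in peritoneal ones, groups that did not overlap, and fell by 2.12 (adjusted p = 0.0111). Cxcl9 fell by 1.94 (adjusted p = 0.0308), Cxcl11 by 1.59 (adjusted p = 0.0163), and the feedback inhibitors Socs1 by 1.04 (adjusted p = 0.0122) and Socs3 by 0.50 (adjusted p = 0.0274). Without subcutaneous libraries 1 and 2 only 2 of the 19 passed, Cxcl10 (-2.23, adjusted p = 0.0287) and Socs1 (-1.30, adjusted p = 0.00864), and Cxcl9 stood at an adjusted p of 0.135. With single libraries left out the count was 3 without subcutaneous library 1, 4 or 5 or peritoneal library 2 or 5. Irf1 differed by -1.24 (adjusted p = 0.0608), Ifngr1 by -0.12, Ifngr2 by -0.30, Jak1 by -0.25 and Jak2 by -0.57, none of which passed. Between pleural and subcutaneous and between pleural and peritoneal cells, 0 of 19 passed.

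Among type I interferon response genes, 7 of 20 fell in peritoneal against subcutaneous cells, led by Rsad2 (-1.33, adjusted p = 0.00460), Irf7 (-1.05, adjusted p = 0.00808), Oasl1 (-0.89, adjusted p = 0.00920), Ifit1 (-1.27, adjusted p = 0.0173) and Isg15 (-1.48, adjusted p = 0.0180). Without subcutaneous libraries 1 and 2, 3 passed, Rsad2, Irf7 and Oasl1, and 3 passed without peritoneal library 2. Of 16 other interferon-induced GTPases 2 fell, the antiviral dynamin-like Mx1 (-1.14, adjusted p = 0.0138) and Mx2 (-1.36, adjusted p = 0.0223), and 0 passed without subcutaneous libraries 1 and 2. The median difference over those 16 was -0.70. For pleural against subcutaneous cells both lists had 0 called. Whether these genes differed more than the 10 members was not tested.

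Of the 20 genes that load the GTPases onto membranes or work beside them, 4 fell in peritoneal against subcutaneous cells and 0 rose, where 6.33% of all genes were called lower and 4.75% higher. Map1lc3b, the autophagy protein LC3B that helps to direct these GTPases to vacuoles, went from 138 ± 8.71 TPM to 109 ± 6.89 TPM (SD, n = 5 each), a fall of 0.35 (adjusted p = 0.00879). The ubiquitin ligase Traf6 fell by 0.65 (adjusted p = 0.0251), Gabarapl1 by 0.31 (adjusted p = 0.0412) and Pias1 by 0.68 (adjusted p = 0.0491). Each of these calls except that of Map1lc3b was lost with some single library left out, as for Traf6 without subcutaneous library 1 (adjusted p = 0.0697) or peritoneal library 2 or 5 (adjusted p = 0.0718 and 0.0572). Without subcutaneous libraries 1 and 2, Traf6 stood at an adjusted p of 0.133, while Map1lc3b passed (-0.36, adjusted p = 0.0287). In pleural against subcutaneous cells 1 of 20 fell, against 1.25% of all genes: Map1lc3b (-0.35, adjusted p = 0.0234), which did not pass without those 2 libraries (adjusted p = 0.144). In pleural against peritoneal cells, Traf6 was higher by 0.71 (adjusted p = 0.0221), a call lost without peritoneal library 2 (adjusted p = 0.0597) or pleural library 3 or 5 (adjusted p = 0.0512 and 0.0515), and Gabarap (-0.37, adjusted p = 0.0208) and Gsdmd, the pore-forming executor of pyroptosis (-0.50, adjusted p = 0.0154), were lower, where 4.45% of all genes were called higher and 5.51% lower.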

How the data were processed

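RNA of whole tumours and of sorted cells was sequenced as 50-base single-end reads, per the labels' protocols, after purification with kits that differed between the kinds of sample. The authors deposited 1 TPM table for each, made with kallisto on GRCm39 per the submitters' processing notes; its version and annotation, and how genes were filtered, were not given in the sources used here. Whole tumour libraries summed to 999999 to 1000000 TPM and sorted ones to 996124 to 998055. Date-like symbols in 17 sorted entries were left out. TPM keeps no read number, so the depth behind each value is unknown.

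In each table a linear model of the 3 sites was fitted to log2(TPM + 1) by limma (release 3.58.1, under R 4.3.3), letting the prior variance follow the mean level, over genes of at least 1 TPM in at least 5 libraries (15054 and 12357); all 10 members passed that filter in both tables. Benjamini-Hochberg adjustment covered all genes tested, at 0.05. A fold change on the log2(TPM + 1) scale understates changes of low genes. Replicates are separate mice per the labels, numbered by the mouse in the title; peritoneal tumours 2, 3 and 4 carry other numbers in the table. Correlations used Python 3.11.15 and numpy 2.4.6. The fit was tested on simulated data. Alternatives were the pseudocount, the filter, scaling, a robust fit, pairwise fits, a replicate block and each library left out. Genes named beyond the members were those of each list that passed, up to 5 by adjusted p, a fixed set (Ifng, Ifngr1, Ifngr2, Jak1, Jak2, Irf1, Socs1, Cxcl9, Cxcl10, Ptprc) and the 10 genes most like the members. Of the genes this rule names, 1 is not reported here. The members and lists were chosen with earlier results of these data known, and no list was tested as a set. Promoters and shared 50-base stretches come from GRCm38 and only describe sequence; 3 members, Gbp4, Gbp6 and Iigp1, have no window shown.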

Additional observations from a re-analysis of the deposited data

Results flagged for a closer look

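In groups of 4 to 10 libraries, a library was picked out where its gap to the nearest other one was large for the range of its group. Of 60 groups examined, 9 gave a pick. The rule's nominal rate of about 1 in 20 assumes normal values and independent groups. These values are TPM without a log, and the members moved together, so picks of the same library are not separate events. In sorted cells, subcutaneous library 1 stood far above the other 4 for 7 members, with 130 TPM for Gbp3, 48.0 TPM for Gbp4, 23.9 TPM for Gbp5, 13.6 TPM for Gbp6, 42.0 TPM for Gbp7, 156 TPM for Igtp and 141 TPM for Iigp1. That library also had the highest Ptprc, at 12.9 TPM, and the part of leukocyte RNA in its GTPase levels was not tested. Pleural library 1 stood far above the other 4 for Gbp5, at 20.6 TPM, and for Iigp1, at 170.0 TPM; its Ptprc was 0.291 TPM, within the 0.228 to 2.05 TPM of the 13 libraries low in that gene. No whole tumour stood apart in this way for any of the 10 members.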

How the results depend on the processing

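TPM carries no read number, so no counting error can be given, and 5 or 6 libraries a site with within-site SDs of 0.61 to 1.07 on the log2 scale bound each difference only loosely. Of the members' values under the alternatives, 1436 kept their direction and side of the threshold, 60 changed direction and 4 newly passed. The count of members called was 0 to 0 with single libraries left out in 5 of the 6 comparisons, and 0 to 1 for pleural against subcutaneous sorted cells, where Gbp5 passed without pleural library 1 (-1.80, adjusted p = 0.0270). With the replicate number as a block, 3 members were called lower in peritoneal than in subcutaneous sorted cells, Gbp3, Gbp5 and Irgm1 (adjusted p = 0.0424, 0.0376 and 0.0384), and 0 in the other 5 comparisons. Deviations of same-numbered libraries correlated from -0.377 to 0.349. Per the labels, equal numbers at different sites are different mice. With so few libraries a site, these correlations cannot exclude a processing step shared by number, which was not tested. Under the block, peritoneal minus subcutaneous differences in whole tumours turned to 0.082 for Gbp2, 0.016 for Gbp4, 0.080 for Igtp and 0.060 for Iigp1. Under median-of-ratios scaling that of Irgm2 turned to -0.014, and under quantile normalization the pleural minus peritoneal difference of Irgm1 in sorted cells turned to -0.0043.

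With single libraries left out, the pleural minus subcutaneous difference of Gbp5 in whole tumours ran from -0.029 to 0.36. Peritoneal minus subcutaneous differences in whole tumours ran from -0.28 to 0.35 for Gbp2, -0.47 to 0.19 for Gbp3, -0.36 to 0.24 for Gbp4, -0.13 to 0.39 for Gbp6, -0.025 to 0.53 for Gbp7, -0.26 to 0.33 for Igtp, -0.31 to 0.27 for Iigp1, -0.44 to 0.058 for Irgm1 and -0.16 to 0.37 for Irgm2. Pleural minus peritoneal differences in sorted cells ran from -0.31 to 0.51 for Gbp2, -0.16 to 0.63 for Gbp3, -0.021 to 0.78 for Gbp4, -0.57 to 0.17 for Gbp5, -0.35 to 0.42 for Gbp6, -0.19 to 0.62 for Gbp7, -0.73 to 0.052 for Igtp, -0.67 to 0.19 for Iigp1 and -0.36 to 0.31 for Irgm1. The causes were not tested.

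Over all genes, calls in whole tumours were 1415 higher and 512 lower for pleural against subcutaneous, 643 and 912 under median-of-ratios scaling and 674 and 718 under quantile normalization. For peritoneal against subcutaneous they were 1283 and 548, then 638 and 868, then 729 and 782. In sorted cells, 587 higher and 782 lower for peritoneal against subcutaneous became 1525 and 961 under quantile normalization, and 550 and 681 for pleural against peritoneal became 1065 and 867 under median-of-ratios scaling. Without a filter the whole tumour counts were 1136 and 1164 against 1927 and 1831, and with the block 849 and 656. Without subcutaneous libraries 1 and 2 the count for pleural against subcutaneous sorted cells was 70 against 203. With single libraries left out, the share of all genes called ran from 5.00 to 14.9% for pleural and 5.99 to 14.6% for peritoneal against subcutaneous whole tumours, and in sorted cells from 0.959 to 2.17% and 6.10 to 13.0% for the same comparisons and 4.28 to 11.5% for pleural against peritoneal cells.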
